A study of Bos taurus with 92 samples.

Results

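The genes described here encode the subunits of the nuclear RNA polymerases, the general transcription factors, the Mediator complex and the elongation factors named with them. They were chosen by symbol: a gene was a member when its probe carried a single symbol beginning with POLR1, POLR2 or POLR3, with GTF2 or GTF3, with TAF or MED and a digit, or with SNAPC, TCEA, TCEB, ELOA, ELOB, ELOC or SUPT. This gave 53 genes on 59 of the 8208 probes of the array, and all 53 passed the filter on missing values and were tested among 4398 genes. Earlier results of these data were known when the members were chosen, and POLR1H and SNAPC2 were marked for description beforehand. The choice itself read names and no measured value. It took in several genes whose products have other roles: TAF5L and TAF6L belong to the SAGA coactivator complex rather than TFIID, SUPT20H is also a SAGA subunit, and TCEAL4 and TCEAL9 are relatives of the elongation factor TFIIS without an established elongation role.

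RNA polymerase I transcribes the ribosomal RNA precursor, RNA polymerase II the messenger RNAs and RNA polymerase III the transfer RNAs and other short RNAs. Each polymerase is brought to its promoters by its own general factors: the SL1 complex for polymerase I, TFIIA to TFIIH with Mediator for polymerase II, and TFIIIC for polymerase III, while the SNAP complex (SNAPc) serves the small nuclear RNA genes. In the early embryo transcription from the embryonic genome begins some cleavages after fertilisation, and a nucleus transferred from a somatic cell has to resume it in the same period.

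Transcript levels had been measured in single bovine blastocysts on a 2-colour cDNA array carrying 2 spots for each probe. The 46 samples were 15 embryos from nuclear transfer (NT, an enucleated oocyte given the nucleus of a donor cell), 15 embryos fertilised in vitro (IVF), 14 embryos from artificial insemination (AI) and 2 samples of donor cells; the labels give no breed, sex, cell line or tissue for any of them. Of the NT embryos 8 have labels beginning with 2_ and 7 with 3_, and 3 AI embryos have labels beginning with H, with no explanation. Each sample was hybridised with the same reference RNA on 2 arrays with the dyes exchanged, so that 92 arrays stand behind the values, and no batch or date is given. All levels below are log2 ratios of sample over reference after centring each array on its median, averaged over both arrays of the sample, and 0 is the median probe. Every sign rests on taking the deposited ratio as Cy5 over Cy3, which no label states and which is probable only. Read so, 13 to 15 of 22 measured trophectoderm markers were higher and 1 was lower in each kind of embryo than in donor cells, and 7 or 8 of 14 fibroblast and matrix markers were lower and 1 was higher. A blastocyst holds several cell types, and fewer cells of a type and less RNA per cell cannot be told apart.

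Values of both arrays of a sample correlated over all spots with r between 0.628 and 0.699 in NT embryos, 0.565 and 0.743 in IVF embryos, 0.567 and 0.706 in AI embryos and 0.301 and 0.354 in donor cells. These r were taken before the 2 spots of a probe were averaged. The agreement of the dye orientations was also taken gene by gene over the 44 embryos, as a description of how far a difference between embryos was measured again on the second array of the same RNA. Its median r was 0.39 over the 53 members and 0.44 over all genes. It was 0.95 for POLR1H and above 0.8 also for GTF2H2 (r 0.85) and POLR1C (r 0.83), and it was near or below 0 for POLR2A (r -0.10), POLR3A (r -0.03), TCEAL4 (r -0.02) and GTF3C1 (r -0.01). SNAPC2 had r 0.49 over the 35 embryos with a value on both arrays. Low signal left a trace in the table, since many deposited values equal the log2 of a ratio of whole numbers up to 10. Such values made up 1.63% of those of the POLR1H probe, 22.8% of those of the SNAPC2 probe and more than 10% at 13 of the 59 member probes.

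Between NT and AI embryos only POLR1H and SNAPC2 passed the threshold. POLR1H, a small zinc-ribbon subunit of RNA polymerase I that is needed for cleavage of the nascent RNA, was higher in NT embryos, and SNAPC2, a subunit of SNAPc, was lower. These are 3.77% of the members, against 8.07% of all genes tested (limma with Benjamini-Hochberg adjustment over all genes, threshold 0.05). The median difference of the 53 members was -0.0039 on the log2 scale, and that of all genes was 0.03. The median size of the difference, whatever its sign, was 0.14 in the members and 0.19 in all genes.

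The POLR1H level in NT embryos ran from a lowest log2 ratio of 0.68 over a median of 1.04 to a highest of 1.63. In IVF embryos the lowest, median and highest levels were -2.24, -1.33 and 0.91, in AI embryos they were -2.05, -0.008 and 0.87, and the 2 donor cell samples lay at 1.29 and 1.66. The NT embryos thus sat together near the donor cells, and the other kinds of embryo spread far below them, with some overlap: 10 of 15 NT embryos lay above every AI embryo and 9 of 15 above every IVF embryo. The NT minus AI difference was 1.22 ± 0.30 (SE), a 2.32-fold ratio, with an adjusted p of 0.00725 (limma). The NT minus IVF difference was 1.89 ± 0.30, a 3.71-fold ratio, with an adjusted p of 5.48e-06 (limma). All 15 NT embryos lay above the mean of either other kind. IVF minus AI was -0.67 ± 0.30 and did not pass (adjusted p 0.0896, limma).

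The POLR1H levels of IVF and AI embryos covered a wide range. Below a log2 ratio of -0.5, a level set after the values were seen, lay 0 of 15 NT embryos, 9 of 15 IVF embryos and 4 of 14 AI embryos. All 9 and all 4 were below it in each dye orientation taken alone, which repeats the measurement on the same RNA. The 9 IVF embryos below it ran from -2.24 to -0.91 and the other IVF embryos from -0.31 to 0.91, while the 4 AI embryos below it ran from -2.05 to -0.74 and the other AI embryos from -0.21 to 0.87, so that the gaps at this level were smaller than the SD of the kind. The standard deviation between embryos was 0.28 in NT, 1.12 in IVF and 0.95 in AI embryos. Ordered from the lowest SD of the 4398 genes, POLR1H had rank 777 in NT, 4346 in IVF and 4163 in AI embryos. No p is given for the difference in spread: it was noticed in these data, and a test of spread over all genes that was tried afterwards found hardly any of the changes placed in simulated data. Within the NT embryos the 8 labelled 2_ had a median POLR1H level of 0.77, with a range of 0.68 to 1.10, and the 7 labelled 3_ a median of 1.24, with a range of 0.89 to 1.63. With the NT embryos labelled 2_ alone the difference from AI embryos was 1.04 with an adjusted p of 0.119 (limma), so that this call ended; over the 13 alternatives tried the adjusted p ran from 9.47e-05 to 0.119.

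SNAPC2 rested on fewer and dimmer values. A value on both arrays was available for 12 of 15 NT, 10 of 15 IVF and 13 of 14 AI embryos, and the fit used these alone. The lowest, median and highest levels were -2.42, -0.34 and 0.67 in NT embryos, -1.26, 0.59 and 2.73 in IVF embryos and 0.50, 0.93 and 1.48 in AI embryos, and the donor cells lay at -0.47 and -0.44. The AI embryos were close together, 8 of 12 NT embryos lay below all of them, and the IVF embryos reached both above the AI range and down into the NT range. NT minus AI was -1.36 ± 0.35, a 2.57-fold lower ratio, with an adjusted p of 0.0112 (limma). NT minus IVF was -0.89 ± 0.38 (adjusted p 0.0815) and IVF minus AI was -0.47 ± 0.37 (adjusted p 0.358), and neither passed in limma. The 5 NT embryos labelled 2_ with a value had a median of 0.60, and 3 of them lay within the AI range; the 7 labelled 3_ had a median of -0.65, and 1 of them lay within it. With the NT embryos labelled 2_ alone the NT minus AI difference was -0.99 with an adjusted p of 0.241 (limma), the highest of 11 alternatives that ran from 0.00324. With small-number ratios set to missing, or with values asked of 90% of each kind of embryo, too few values remained to test SNAPC2. Its partner in the complex, SNAPC1, differed from AI embryos by 0.03 ± 0.20 and from IVF embryos by -0.21 ± 0.19 in NT embryos, with adjusted p of 0.96 and 0.461 (limma). The SNAPC1 probe was dim as well, with 14.7% small-number ratios and a dye agreement of r 0.11.

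**Figure D1:**
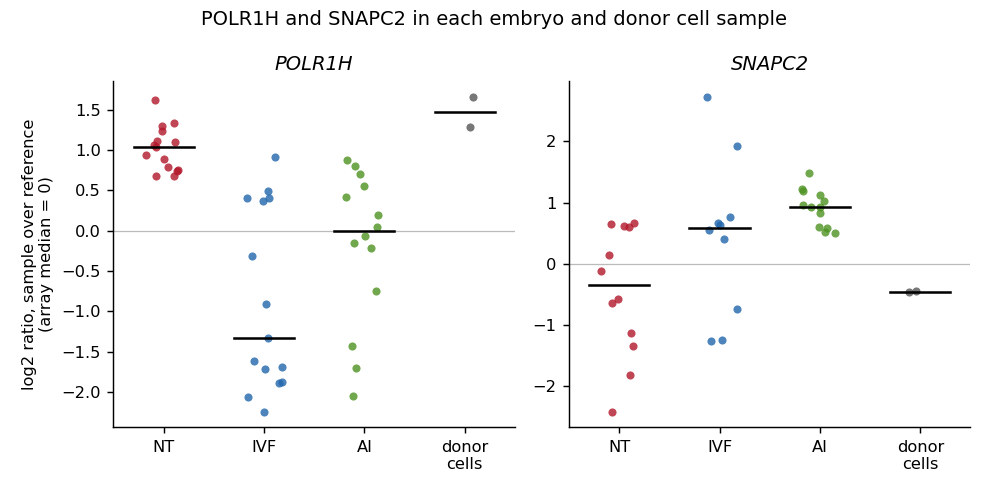
Log2 ratio of sample over reference (vertical axis, array median 0) of POLR1H and SNAPC2 in NT, IVF and AI embryos and donor cells. Each point is 1 sample and the bar is the median of the kind; for POLR1H all 15 NT embryos lie at 0.68 or above, while 9 IVF and 4 AI embryos lie below -0.5.

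NT and IVF embryos, and IVF and AI embryos, differed at more members. Of the 53 members 8 were higher and 5 lower in NT embryos, which is 24.5% of the members against 24.2% of all genes. Between IVF and AI embryos 7 were higher and 5 lower in IVF embryos, which is 22.6% of the members against 29.5% of all genes. Both shares are near or below the background, and the members' median differences, -0.06 for NT minus IVF and 0.01 for IVF minus AI, lay near those of all genes, -0.00048 and 0.03. The plot of all member differences shows most intervals crossing 0 in each comparison.

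**Figure D2:**
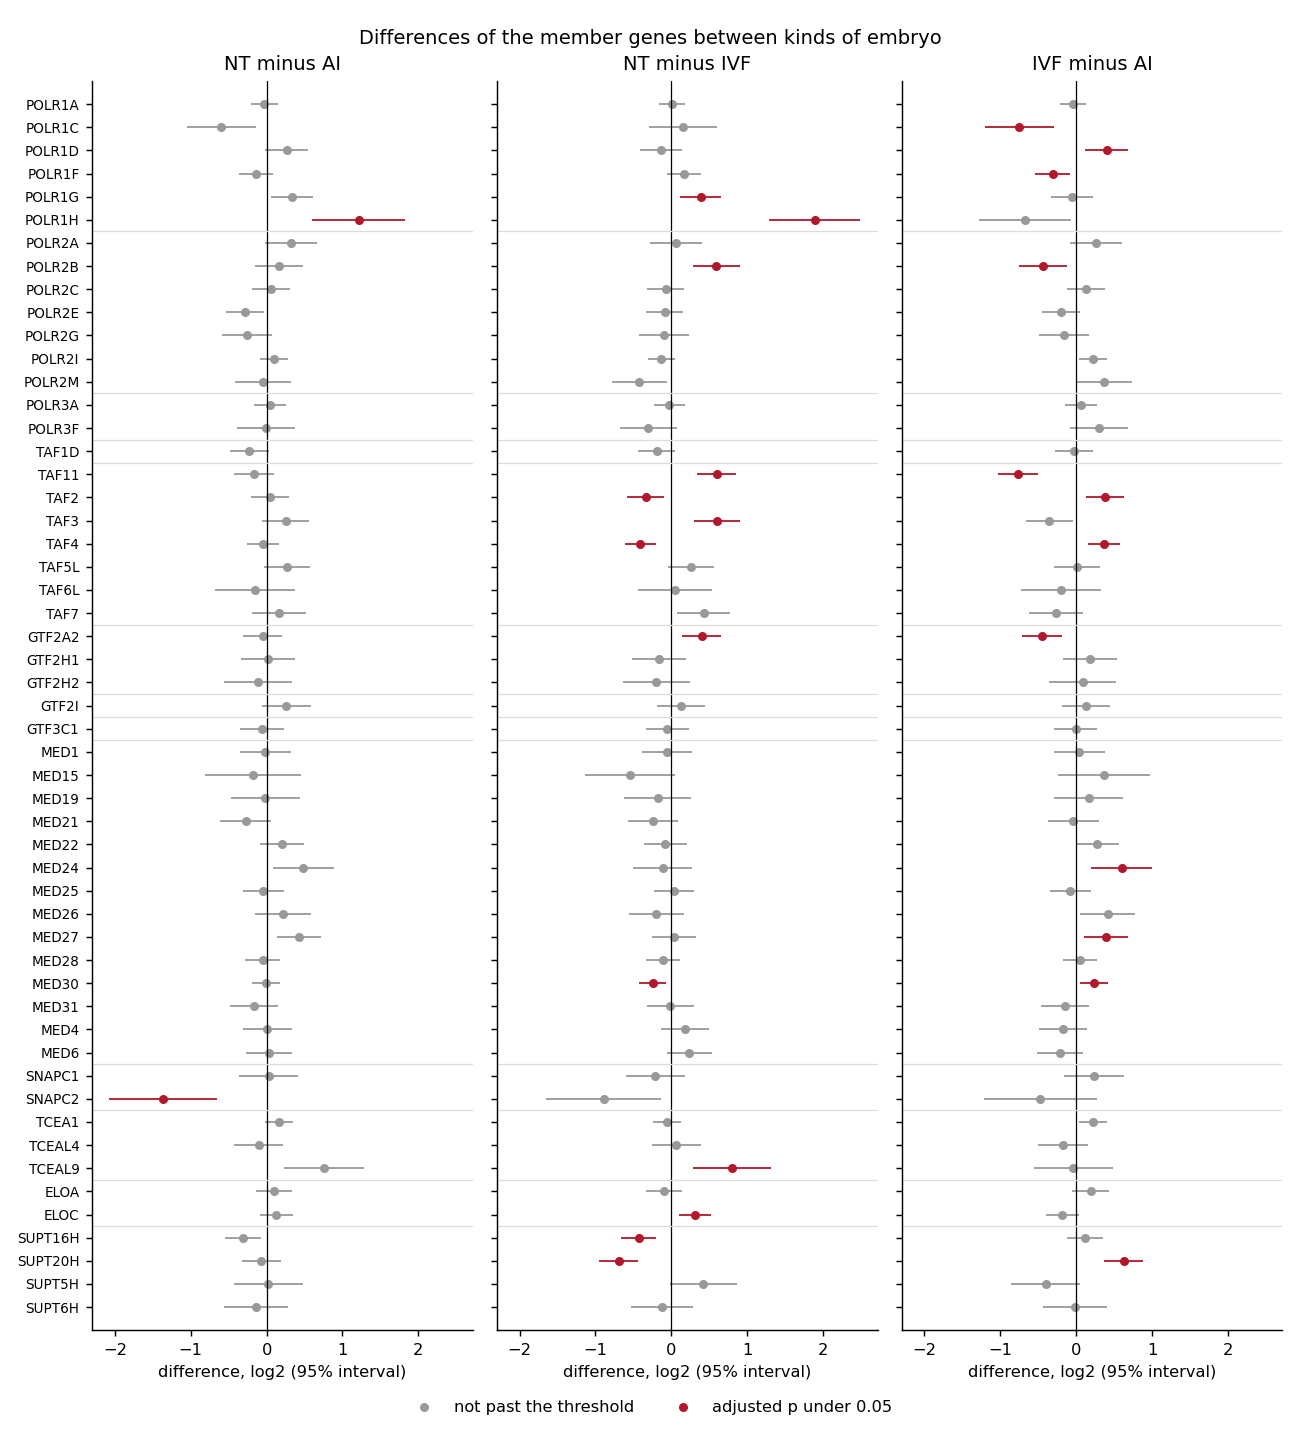
Differences of the 53 members between kinds of embryo (horizontal axis, log2, with 95% intervals of the limma fit; members down the page, grouped by role). Red marks an adjusted p under 0.05: 2 members for NT minus AI, 13 for NT minus IVF and 12 for IVF minus AI.

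Among the 6 measured subunits of RNA polymerase I, 2 were higher in NT than in IVF embryos, or 33.3% against 24.2% of all genes. Besides POLR1H this was POLR1G, a subunit of the pair in polymerase I that resembles TFIIF, at 0.38 ± 0.13 with an adjusted p of 0.0299 (limma); this member was singled out here after its value was seen. POLR1C, the assembly subunit shared by polymerases I and III, was lower in IVF than in AI embryos by -0.75 ± 0.23 (adjusted p 0.00976, limma). Its levels ran from -1.66 over 0.37 to 1.25 in IVF embryos and from 0.27 over 1.01 to 1.97 in AI embryos, with 14 of 15 IVF embryos below the AI mean. POLR1D, with which POLR1C pairs in both enzymes, moved the opposite way, at 0.40 ± 0.14 for IVF minus AI (adjusted p 0.0258, limma). The POLR1D probe, however, was the only member probe without a match in a current gene table. POLR1F, of the stalk of polymerase I, was lower in IVF embryos by -0.31 ± 0.11 (adjusted p 0.0333, limma), but on the arrays with the sample in Cy3 alone the sign turned, to 0.024. POLR1A, the largest subunit, did not pass in any comparison between embryos. The Pol I subunits thus did not move as a block: the range of their NT minus AI differences was -0.60 to 1.22. For IVF minus AI 1 subunit was higher and 2 were lower, or 50% against 29.5% of all genes. A group of 6 is too small to be set apart from these shares of all genes. In all, 19 members passed in at least 1 comparison between kinds of embryo and 34 in none; the 19 are 35.8% of the members, against 39.9% of all genes.

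Of the 7 measured genes of RNA polymerase II, POLR2B alone passed between kinds of embryo. That is 14.3% for NT minus IVF and for IVF minus AI, against 24.2% and 29.5% of all genes. POLR2B encodes the second largest subunit, which forms the active centre together with POLR2A. Its lowest, median and highest levels were -0.18, 0.54 and 1.02 in NT embryos, -1.22, -0.01 and 0.48 in IVF embryos and -0.52, 0.28 and 0.90 in AI embryos. The IVF embryos were shifted down with wide overlap, 8 NT embryos lying above all of them. NT minus IVF was 0.59 ± 0.16 (adjusted p 0.00348) and IVF minus AI was -0.43 ± 0.16 (adjusted p 0.0323) in limma. POLR2I, a small subunit related to POLR1H, was not past the threshold for IVF minus AI, at 0.23 ± 0.09 with an adjusted p of 0.0536 (limma). The RNA polymerase III subunits POLR3A and POLR3F, the TFIIIC subunit GTF3C1, the SL1 subunit TAF1D and GTF2I, a factor that binds initiator elements, were not past it in any of the 3 comparisons between embryos.

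In TFIID and TFIIA, TAF11 and GTF2A2 were lower in IVF embryos than in both other kinds. TAF11, a histone-fold subunit of TFIID, had levels of 0.39, 0.72 and 1.10 (lowest, median and highest) in NT embryos, -0.72, 0.15 and 1.11 in IVF embryos and 0.44, 0.89 and 1.45 in AI embryos. Of the IVF embryos 11 of 15 lay below every NT embryo and 12 of 15 below every AI embryo, and 1 IVF embryo lay above all NT embryos. NT minus IVF was 0.60 ± 0.13 (adjusted p 0.000456) and IVF minus AI was -0.76 ± 0.13 (adjusted p 1.48e-05) in limma; NT minus AI was -0.17 ± 0.13 and did not pass (adjusted p 0.476). GTF2A2, the small subunit of TFIIA, a factor that steadies TFIID on the promoter, had median levels of 0.50 in NT, 0.25 in IVF and 0.52 in AI embryos. It differed by 0.40 ± 0.13 for NT minus IVF (adjusted p 0.0176) and by -0.45 ± 0.13 for IVF minus AI (adjusted p 0.00665) in limma.

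Of the other TFIID subunits described, TAF4 and TAF2 went the opposite way, while TAF3 had the same signs as TAF11. TAF4, a core scaffold of the complex, was lower in NT than in IVF embryos by -0.41 ± 0.10 (adjusted p 0.00221) and higher in IVF than in AI embryos by 0.36 ± 0.10 (adjusted p 0.00612, limma), although the second of these differences was 0.03 on the arrays with the sample in Cy5 alone. TAF2, which takes part in recognising the initiator element, differed by -0.34 ± 0.12 for NT minus IVF (adjusted p 0.0348) and by 0.38 ± 0.12 for IVF minus AI (adjusted p 0.0155, limma). TAF3, which binds a histone mark of active promoters, was higher in NT than in IVF embryos by 0.60 ± 0.15 (adjusted p 0.00265, limma), and IVF minus AI was -0.35 ± 0.15 (adjusted p 0.0814, limma). Dye agreement was low, at r 0.22 for TAF4, 0.12 for TAF2 and 0.21 for TAF3, against 0.56 for TAF11. The TAF2 probe was also dim, with 14.3% small-number ratios. Over the 7 genes grouped with TFIID, 2 were higher and 2 lower in NT than in IVF embryos, and 2 were higher and 1 lower in IVF than in AI embryos; the group is too small to be set apart from the 24.2% and 29.5% of all genes called.

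SUPT20H gave the lowest p between kinds of embryo of any member outside the polymerases and TFIID. Its lowest, median and highest levels were -1.31, -0.81 and -0.37 in NT embryos, -0.85, -0.04 and 0.40 in IVF embryos and -1.54, -0.64 and -0.12 in AI embryos, against -0.12 and 0.39 in donor cells. Of the IVF embryos 12 of 15 lay above every NT embryo and 9 of 15 above every AI embryo. NT minus IVF was -0.69 ± 0.13 (adjusted p 5.78e-05) and IVF minus AI was 0.63 ± 0.13 (adjusted p 0.000235) in limma. SUPT16H, a subunit of the histone chaperone FACT, was lower in NT than in IVF embryos by -0.43 ± 0.12 (adjusted p 0.00427, limma), with 10 IVF embryos above all NT embryos. SUPT5H and SUPT6H, which travel with the elongating polymerase, were not past the threshold between kinds of embryo, nor were the TFIIH subunits GTF2H1 and GTF2H2.

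The 14 Mediator genes, whose complex links activators to RNA polymerase II, gave 0, 1 and 3 calls for NT minus AI, NT minus IVF and IVF minus AI (limma), against 8.07%, 24.2% and 29.5% of all genes. Their NT minus AI differences ran from -0.28 to 0.48, and 2 had an unadjusted p under 0.05. MED30 was lower in NT than in IVF embryos by -0.24 ± 0.09 (adjusted p 0.0375, limma). In IVF against AI embryos MED24 (0.60 ± 0.20, adjusted p 0.0188), MED27 (0.39 ± 0.14, adjusted p 0.0357) and MED30 (0.23 ± 0.09, adjusted p 0.0434) were higher in limma. MED24 had a dye agreement of r 0.05, so that its spread between embryos was hardly seen again on the second array.

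Among the elongation factors ELOC, an adaptor subunit of Elongin and of ubiquitin ligases, was higher in NT than in IVF embryos by 0.31 ± 0.11 (adjusted p 0.0253, limma). TCEAL9 was higher by 0.80 ± 0.26 (adjusted p 0.0184, limma), and its NT minus AI difference of 0.76 ± 0.26 did not pass (adjusted p 0.0588). TCEA1, which encodes TFIIS and helps a stalled polymerase to resume, did not pass between kinds of embryo. Its level in the 15 NT embryos ran from -1.12 to -0.80 with a median of -0.97. The SD of 0.10 was the lowest of all 4398 genes in NT embryos, against 0.29 in IVF and 0.22 in AI embryos, with ranks of 698 and 341. This holds for the mean of both arrays: in NT embryos TCEA1 ran from -1.16 to -0.45 in Cy5 alone and from -1.34 to -0.86 in Cy3 alone. Its dye agreement over the embryos was r 0.26.

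7 members passed in the same direction for IVF against both other kinds, which is 13.2% of the members against 15.5% of all genes, so that the count is near the background. TAF11, GTF2A2 and POLR2B were lower in IVF embryos, and SUPT20H, TAF4, TAF2 and MED30 were higher. Both comparisons use the same IVF embryos, so that they are not separate evidence. The directions hold relative to the median probe of each array. Without centring, the median of all genes moved to 0.38 for NT minus IVF and 0.44 for NT minus AI, and the NT minus IVF differences became -0.31 for SUPT20H (adjusted p 0.138), -0.05 for SUPT16H (adjusted p 0.86) and -0.03 for TAF4 (adjusted p 0.909, limma), while TAF2 at 0.045 and MED30 at 0.14 changed sign. The split of member calls as deposited was 25 higher and 1 lower for NT minus AI and 17 higher and 0 lower for NT minus IVF. The matching splits over all genes are not given here.

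**Figure D3:**
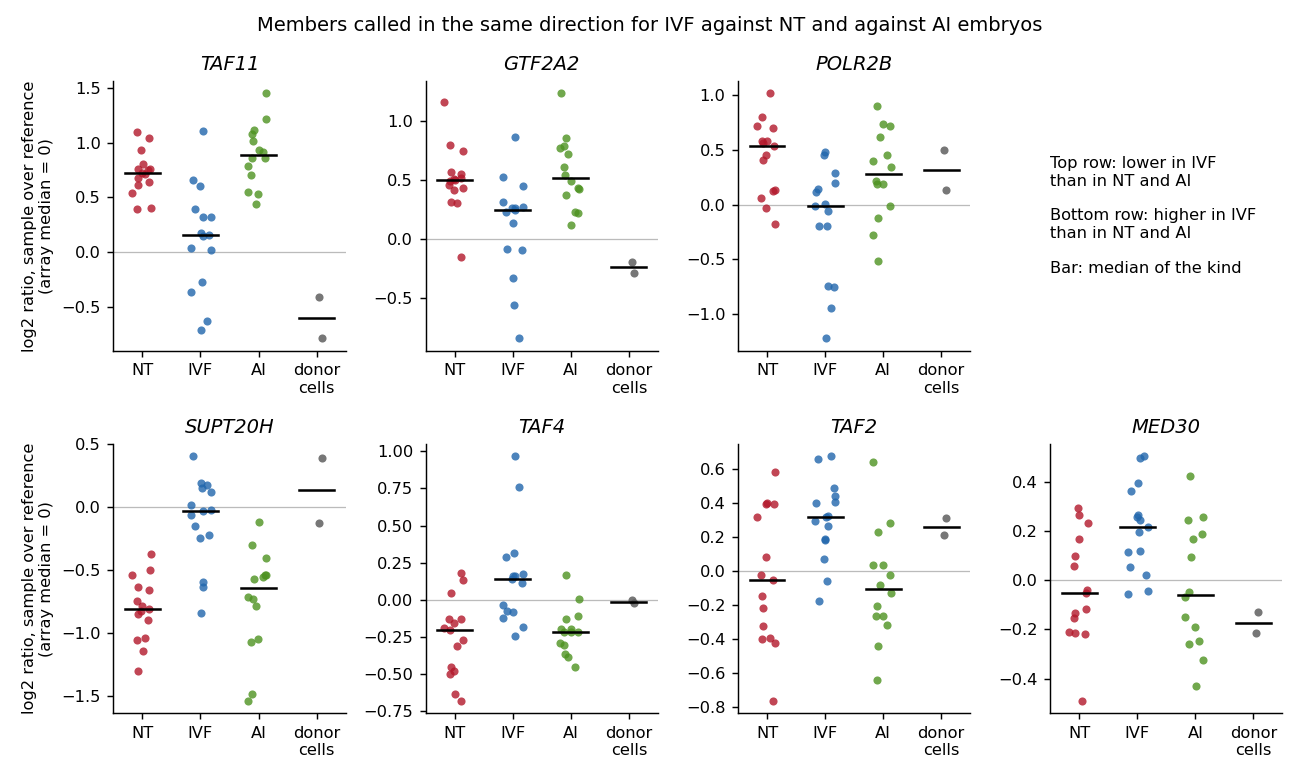
Log2 ratio of sample over reference (vertical axis, array median 0) of the 7 members past the threshold in the same direction for IVF against NT and against AI embryos. Points are samples and bars are medians of the kind; 12 of 15 IVF embryos lie above every NT embryo for SUPT20H, and the kinds overlap more for MED30 and TAF2.

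Pairs of members varied from embryo to embryo in the same and in opposite directions. After the mean of each kind was removed, the correlation of 2 members over the embryos had a median r of 0.015 over all pairs of members, 0.026 within Mediator, 0.015 within RNA polymerase I and -0.007 within RNA polymerase II. Pairs of all genes had a median of 0 and a central 95% range of -0.337 to 0.352. Over 44 embryos the highest value among the members was 0.646, for POLR1A with TCEA1. The lowest was -0.557, for ELOA with POLR1H, and both were picked as the extremes of all pairs of members. Dye agreement was only r 0.14 for POLR1A and 0.26 for TCEA1, so that little of their variation was seen again on the second array. Within RNA polymerase I the values ran from -0.258 to 0.496. All of these values share the reference and the arrays. The median SD of the members between embryos was 0.38 in NT, 0.40 in IVF and 0.41 in AI embryos, against 0.41, 0.45 and 0.44 over all genes.

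Of 73 further genes of the transcription machinery listed beside the members (elongation kinases and pausing factors, FACT, small nuclear RNA factors, mitochondrial factors), 32 were measured. In NT against AI embryos 2 were higher and 1 lower, in NT against IVF embryos 2 were higher and none lower, and in IVF against AI embryos 4 were higher and 6 lower (limma). These are 9.38%, 6.25% and 31.2% of the 32, against 8.07%, 24.2% and 29.5% of all genes. NELFB, of the pausing factor NELF, was lower in NT than in AI embryos by -0.76 ± 0.14 (adjusted p 0.000387), while MTERF2, a mitochondrial factor, was higher by 1.37 ± 0.30 (adjusted p 0.00232) and CDK9, the kinase that releases paused polymerase, by 0.40 ± 0.12 (adjusted p 0.0319, limma). LARP7 and SSB, which are related proteins binding the ends of polymerase III transcripts, were higher in NT than in IVF embryos by 1.49 ± 0.22 (adjusted p 1.68e-06) and 0.68 ± 0.14 (adjusted p 0.000349). For IVF minus AI they differed by -1.67 ± 0.22 (adjusted p 1.91e-07) and -0.88 ± 0.15 (adjusted p 8.96e-06), followed by the FACT subunit SSRP1 at -0.70 ± 0.14 (adjusted p 0.00016) and NELFB at -0.60 ± 0.14 (adjusted p 0.0011, limma). SSRP1 and SUPT16H form FACT together, and for IVF minus AI SUPT16H was at 0.12 ± 0.12 (adjusted p 0.472).

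Against the 2 donor cell samples, 9 members were higher and 6 lower in NT embryos, 5 higher and 7 lower in IVF embryos, and 8 higher and 8 lower in AI embryos (limma). These are 28.3%, 22.6% and 30.2% of the members, against 35.4%, 34.3% and 37.0% of all genes. The comparisons share the same 2 donor samples. Their p-values rest on the spread shared by all 46 samples, nearly all of them embryos. They thus assume that donor cells vary like embryos. MED22, TCEAL4, SNAPC1, TAF7 and MED31 were lower in every kind of embryo, and TAF11, POLR1F and MED28 were higher in every kind.

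MED22, a subunit of the Mediator head, had the largest difference of any member that passed in NT and AI embryos. Its levels ran from -2.68 over -2.33 to -1.40 in NT embryos, from -2.65 over -2.23 to -1.48 in IVF embryos and from -3.09 over -2.51 to -1.50 in AI embryos, against -0.84 and 0.25 in donor cells, with no overlap. The differences were -1.97 ± 0.29 for NT (adjusted p 2.77e-07), -1.89 ± 0.29 for IVF (adjusted p 7.15e-07) and -2.17 ± 0.29 for AI embryos (adjusted p 3.27e-08, limma). The SD of MED22 was 0.77 in the 2 donor samples, against 0.37 in NT, 0.30 in IVF and 0.42 in AI embryos. These p-values therefore do not measure the spread of donor cells. TCEAL4 differed by -1.38 ± 0.32 in NT, -1.44 ± 0.32 in IVF, where 14 embryos had a value, and -1.28 ± 0.32 in AI embryos, and TAF7, the TFIID subunit that inhibits the acetyltransferase activity of TAF1, by -1.16 ± 0.36, -1.589 ± 0.36 and -1.32 ± 0.36. TAF11 was higher by 1.33 ± 0.26 in NT, 0.73 ± 0.26 in IVF and 1.50 ± 0.27 in AI embryos. POLR1F was higher by 0.87 ± 0.23, 0.70 ± 0.23 and 1.01 ± 0.23. POLR1C was higher in NT (1.20 ± 0.46) and AI embryos (1.80 ± 0.46), while its donor samples lay far apart, at 0.31 and -1.71.

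POLR1H was lower than in donor cells by -2.35 ± 0.62 in IVF (adjusted p 0.00217) and -1.67 ± 0.62 in AI embryos (adjusted p 0.0289, limma). The AI call did not pass without donor sample 8 (adjusted p 0.11) or without donor sample 9 (adjusted p 0.224), and the IVF call did not pass without donor sample 9 (adjusted p 0.0625, limma). NT minus donor cells was -0.46 ± 0.62, with an interval of -1.70 to 0.78 and an adjusted p of 0.624 (limma). This SE rests on 1 spread shared by all groups of the model. The SD of POLR1H was 1.12 in IVF and 0.95 in AI embryos, against 0.28 in NT embryos and 0.26 in donor cells. The width of the interval thus largely reflects embryos outside this comparison, and no direction is read from it. SNAPC2 differed from donor cells by 0.0085 ± 0.67 in NT, 0.90 ± 0.68 in IVF and 1.37 ± 0.67 in AI embryos, none past the threshold (limma). SUPT20H was lower in NT (-0.94 ± 0.26) and AI embryos (-0.88 ± 0.26), and IVF embryos differed from donor cells by -0.25 ± 0.26 (adjusted p 0.51, limma).

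The split of higher and lower members depended on the dye orientation. With the sample in Cy5 alone 1 member was higher and 10 lower in NT embryos, and with the sample in Cy3 alone 15 were higher and 3 lower. The same splits were 1 and 7 against 14 and 5 in IVF embryos, and 3 and 10 against 10 and 3 in AI embryos. No split over all genes is given here for each orientation, so the change cannot be read as particular to the members. All 15, 12 and 16 calls of NT, IVF and AI embryos had the same sign in both orientations, from whose mean they were called, but some were near 0 in one of them: for NT minus donor cells GTF2A2 was 0.0038 in Cy5 and 1.49 in Cy3, and ELOC 0.12 and 1.23. When either donor sample was left out, with the lone one assumed to vary like the embryos, 3 of these calls passed each time in each kind: MED22 and TCEAL4 in all 3 kinds, TAF11 in NT and AI embryos, and TAF7 in IVF embryos. The MED22 difference in NT embryos was -1.43 without donor sample 8 and -2.51 without donor sample 9. The NT call count was 8 and 7 in these settings, the IVF count 6 and 7, and the AI count 7 and 9.

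**Figure D4:**
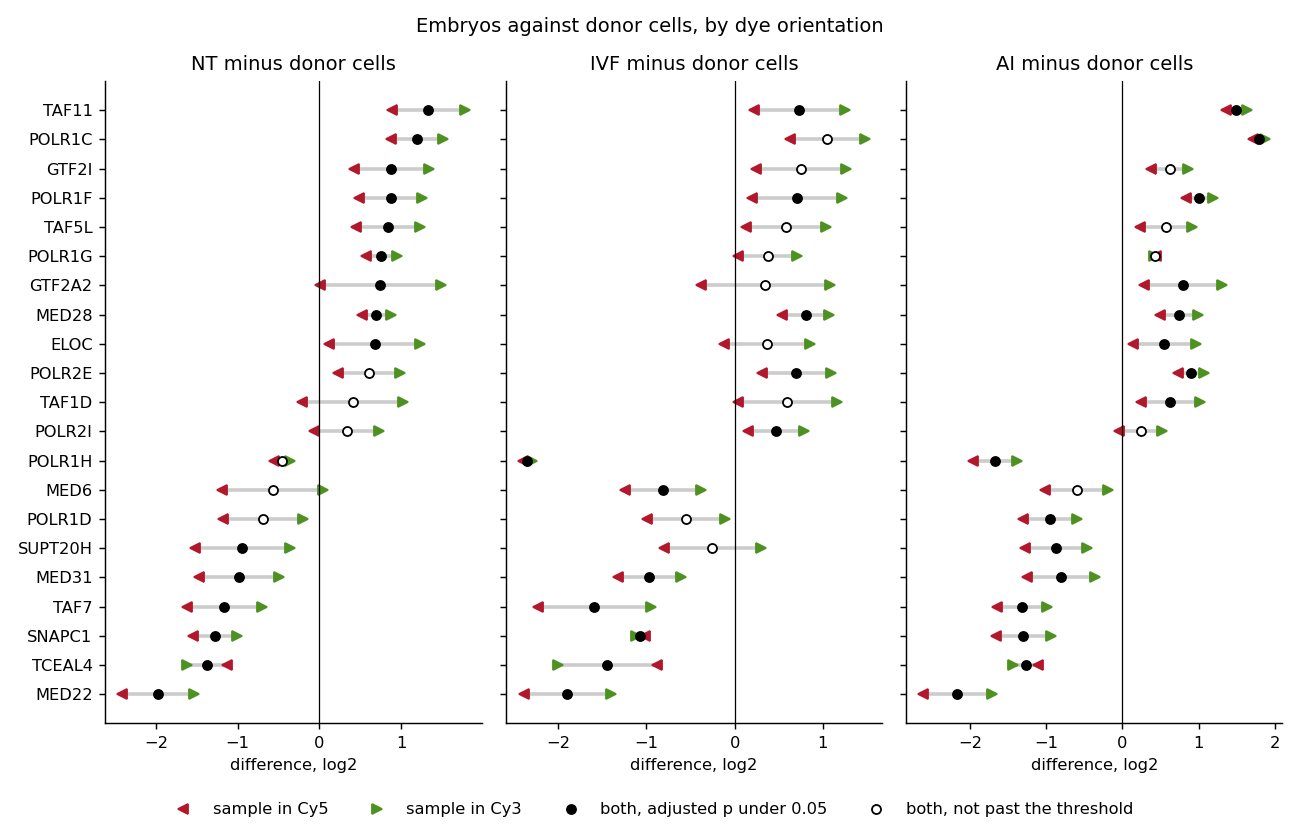
Differences from the donor cells (horizontal axis, log2) of the 21 members past the threshold in at least 1 kind of embryo, for NT, IVF and AI embryos. Triangles give each dye orientation, circles both orientations together and filled circles an adjusted p under 0.05; the Cy3 values lie to the right of the Cy5 values for most members, and MED22 is lowest in NT and AI embryos.

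Of the 4 members with several probes, MED1 (3 probes), MED25 (3), TAF6L (2) and ELOA (2), no single probe passed between kinds of embryo. The 3 MED1 probes went different ways against donor cells: -0.88, -1.02 and 1.10 for NT minus donor cells, of which the second passed (adjusted p 0.0148, limma), so that no direction is given for MED1. The 3 MED25 probes were at 0.14, -1.07 and -0.56 for NT minus donor cells. Of these the last, which had the fewest small-number ratios (0.54%), passed in every kind of embryo. Its adjusted p against donor cells was 0.0139 in NT, 0.0108 in IVF and 0.00106 in AI embryos (limma), while the mean of the MED25 probes did not pass. For NT minus AI the probes of MED1, MED25 and TAF6L also disagreed in sign, and for NT minus IVF those of all 4.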

How the data were processed

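Per the labels' protocols, RNA was extracted with Trizol and amplified linearly, the reference by fewer rounds than the samples, and labelled as aminoallyl cDNA. The authors deposited 1 log2 dye ratio per spot; software, background correction and normalisation are not given in the sources used here. Here the sign of Cy3 arrays was reversed, the fill value 16.61 (2657 cells) was set to missing, each array was centred on its median (array medians ran from -2.14 to 0.86), and the 2 adjacent spots of a probe were averaged. A sample's value is the mean of its 2 arrays and missing when either is. Probes with values in at least 50% of each kind of embryo and in both donor samples were kept (7992 of 8208) and averaged by gene. Symbols came from the platform annotation, and 58 of 59 member probes, all but that of POLR1D, matched a current gene table.

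All 46 samples entered 1 model of group means in limma 3.58.1 (R 4.3.3), with 2-sided tests and Benjamini-Hochberg adjustment over 4398 genes; a member is called at an adjusted p under 0.05. The procedure was tested on simulated data; tables were made in Python 3.11.15. The labels do not say whether embryos of a kind share parents, an oocyte batch or a donor line, so p-values measure the spread between these embryos, and the number of embryos and donor samples limits the precision.

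The members, roles and lists were chosen with earlier results of these data known. Named are POLR1H and SNAPC2; the members past the threshold in a comparison, or the 5 largest rises and falls where over 10 passed; up to 2 members of smallest p per role; members whose probes disagree; and up to 4 other machinery genes of smallest p per embryo comparison. Further members named for description were added after their values were seen. Alternatives were no centring, quantile and spread scaling, each dye alone, other filters, 1 probe per gene, only the groups compared, subsets by label, and each donor sample left out; setting small-number ratios to missing and the unblocked fit of shared numbers were added after seeing the data.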

Additional observations from a re-analysis of the deposited data

How the results depend on the processing

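Quantile normalisation, scaling to a common spread, 1 probe per gene and no filter kept all 6 counts of called members within 1.5 times of those reported. For NT minus AI (2 called) the count was 26 as deposited, 6 with the sample in Cy5 alone, 1 with values asked of 90% of each kind, 1 with small-number ratios set to missing (POLR1H in both) and 0 with the NT embryos labelled 2_ alone (limma; 8 members had an unadjusted p under 0.05). For NT minus IVF (13 called) it was 7 with the NT embryos labelled 2_ alone. For IVF minus AI (12 called) it was 4 as deposited and 6 on Cy3 arrays alone. As deposited it was 9 for NT minus donor cells (15 called) and 7 for IVF minus donor cells (12 called), the last being 19 with the sample in Cy3 alone. These counts are of members alone, and the matching shares over all genes are not given here. Leaving out 1 donor sample gave 7 to 8 calls for NT, 6 to 7 for IVF and 7 to 9 for AI embryos. The signs of TAF2 (0.045) and MED30 (0.14) for NT minus IVF as deposited, and of POLR1F (0.024) for IVF minus AI in Cy3 alone, were reversed. The cause was not tested. 7 embryo numbers are shared by IVF and AI embryos, but same-numbered embryos did not vary together (r -0.06 to 0.086, 1 of 7 best with its own number); with these numbers as a replicate block 2 members were called for IVF minus AI, and 4 in the same embryos without the block. Low signal limits SNAPC2, TAF6L and MED15 most.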
